A study of Homo sapiens with 4 samples.

Results

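The HOX genes measured here were the transcripts of the HOXA, HOXB, HOXC and HOXD clusters in HEK293 cells, a human embryonic kidney line that was transformed with adenovirus DNA. Members were the genes whose array accession matched a RefSeq symbol made of HOX, a cluster letter and a number. Of 39 such symbols 38 had probes on the array, 114 probes in all, against 17217 named genes in the whole data set. HOXA9 had no matched probe and has no value here. The 4 arrays held total RNA from 4 untreated cultures of 1 group, all grown in DMEM with serum and antibiotics, so the design contains no contrast between conditions. The cells are a transformed line and stand for no tissue of an embryo.

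HOX genes encode homeodomain transcription factors that specify position along the body axis. In mammals they lie in 4 clusters that arose by duplication of 1 ancestral cluster, so that genes at the same place in different clusters, called paralogues, share a number. Genes with low numbers are expressed toward the head, genes with high numbers toward the tail and the limb ends, and many adult cells keep a part of the pattern. In the developing kidney the group 11 genes are known for their role in the outgrowth of the ureteric bud.

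The value of a gene is given as its distance, in log2 units, to a detection baseline. On each array the baseline was the mean plus 2 SD of seminal protein genes, chosen in the methods as unlikely to be transcribed. Of the 10 such genes measured, SPATA5 (now AFG2A) and SPATA13 lay at -0.13 and -0.38 log2 units from the baseline, and SPATA5 was above it on replicate 3, while the other 8 lay at -2.85 to -3.58. These 2 genes set the height of the baseline, and without them limma called 35 HOX genes and not 20. Detected means here that the distance, averaged over the 4 arrays, was above 0. Each probe has its own affinity for its transcript, so distances of different genes do not rank their transcripts by abundance. For the same reason the clusters are described by counts, beside the share over all genes, and no test was made between them. The labelling copied double-stranded cDNA with random primers, so a probe cannot tell a HOX transcript from an antisense transcript over the same bases.

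Bulk RNA cannot tell fewer cells with a transcript from less transcript per cell. Message was detected for 27 of 38 HOX genes (71.1%), against 52.7% of all named genes. Of the HOX genes 22 lay above the baseline on all 4 arrays, against 45.0% of all named genes, and 9 lay below it on all 4, against 39.8% of all named genes. The limma one-sided moderated test, adjusted over all 17217 genes, called 20 HOX genes, against 45.9% of all genes. The median distance was 0.79 log2 units for HOX genes and 0.26 for all genes. On single arrays the share of HOX genes above the baseline was 76.3%, 71.1%, 60.5% and 63.2% on replicates 1 to 4, where all genes gave 58.1%, 54.2%, 47.4% and 50.2%. The share was thus higher among HOX genes on each of the 4 arrays, and both shares were lowest on replicate 3, which had the highest baseline.

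The counts of detected genes were 8 of 10 for HOXA, 8 of 10 for HOXB, 5 of 9 for HOXC and 6 of 9 for HOXD. The limma test called 6, 4, 5 and 5 of them. Over all named genes 52.7% were detected and 45.9% called, so that HOXC with 55.6% detected and HOXB with 4 of 10 called lay near the share of all genes. In HOXB 4 detected genes lay close to the baseline and were not called, whereas each detected HOXC gene was called.

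**Figure D1:**
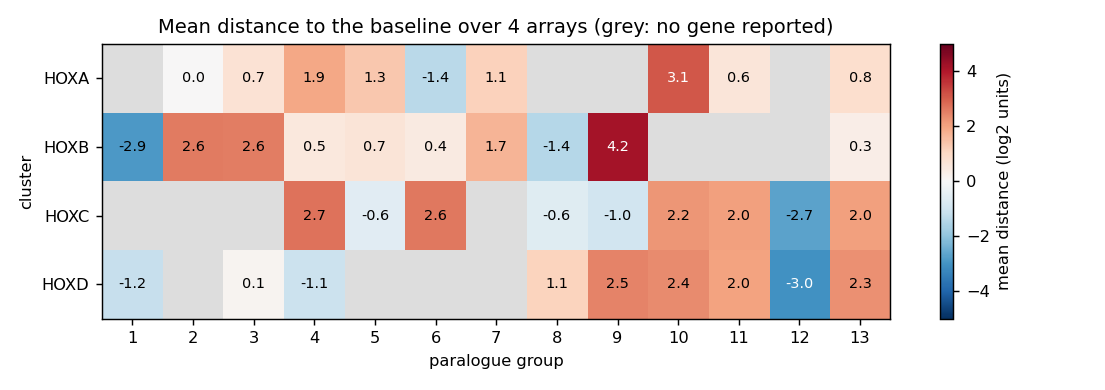
Mean distance to the detection baseline over 4 arrays, in log2 units, for each measured HOX gene, with clusters as rows and paralogue groups as columns. Red cells lie above the baseline, blue cells below it, and grey cells hold no gene reported here. Group 12 is blue in HOXC and HOXD, while groups 10, 11 and 13 are red throughout.

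The same genes can be read by paralogue group. All measured members were detected in 6 of the 13 groups, which were groups 2, 3, 7, 10, 11 and 13. Groups 2 and 3 each rest on a gene at the baseline, HOXA2 and HOXD3, and without replicate 1 these lay at -0.17 and -0.16 log2 units, which left 4 full groups. Without replicate 2 HOXA2 lay at -0.09, which left 5. With the mean of log2 probe values or the median of the probes there were 4, and groups 3 and 11 were not full. HOXD11 then lay at -0.37 and -2.22. On replicates 1 and 3 alone group 13 was not full, with HOXB13 at -0.09. With 3 SD in the baseline there was 1, group 10, and with the lower baselines up to 11. No member was detected in 2 groups, among them group 12, and the other 5 groups were mixed. The anterior groups 1 to 3 had 5 of 8 members detected, the central groups 4 to 8 had 10 of 15, and the posterior groups 9 to 13 had 12 of 15. These shares were 62.5%, 66.7% and 80.0%, beside 52.7% of all named genes, and were not tested against each other. They depended on the probe summary. With the median of the probes the anterior HOXA3 and HOXD3 lay at -2.19 and -0.83 log2 units. The posterior HOXA11 and HOXD11 then lay at -0.35 and -2.22, so the anterior and posterior shares were both lower.

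Along a cluster, measured neighbours lay on the same side of the baseline in some pairs and on opposite sides in others. Of 34 pairs of measured genes next to each other, 16 were both detected, 1 was both undetected and 17 differed. The pair of HOXA7 and HOXA10 skips HOXA9, which has no value. Such counts depend on the share detected, here 27 of 38. No share of pairs over all genes was computed, so the count is not read as a feature of the clusters. The undetected pair was HOXC8 with HOXC9. At the baseline used here the undetected genes did not form 1 block at an end of a cluster. This layout depends on the baseline. Without SPATA5 and SPATA13 as controls 35 HOX genes were detected, 9 of them in HOXB. There HOXB1, at the end of its cluster, stayed undetected at -0.53 log2 units.

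The regulatory sequence before some of these neighbours is shown because HOXD12 lay below the baseline in every setting that kept it while both its neighbours were called. In HOXD the measured genes ran from HOXD11 at 2.01 ± 0.90 log2 units through HOXD12 at -3.05 ± 0.82 to HOXD13 at 2.27 ± 1.17 (SD, n = 4 for each). HOXD11 was above the baseline through 1 of its 3 probes, and with the median of the probes or the mean of their log2 values it lay at -2.22 or -0.37, on the side of HOXD12. HOXD13 lost its call with the median (0.65, limma adjusted p = 0.167). The 250 bases before the annotated start of each, on the plus strand of GRCh38.p14 and from RefSeq, follow with CpG dinucleotides (CG) in capitals. They lie at chr2:176107030-176107279, chr2:176099545-176099794 and chr2:176092471-176092720.
HOXD11: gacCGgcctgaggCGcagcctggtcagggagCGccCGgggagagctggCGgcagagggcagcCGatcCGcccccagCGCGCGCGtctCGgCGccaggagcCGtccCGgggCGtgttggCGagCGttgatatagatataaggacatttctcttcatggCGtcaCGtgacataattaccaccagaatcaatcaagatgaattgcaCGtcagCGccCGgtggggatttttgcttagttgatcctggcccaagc
HOXD12: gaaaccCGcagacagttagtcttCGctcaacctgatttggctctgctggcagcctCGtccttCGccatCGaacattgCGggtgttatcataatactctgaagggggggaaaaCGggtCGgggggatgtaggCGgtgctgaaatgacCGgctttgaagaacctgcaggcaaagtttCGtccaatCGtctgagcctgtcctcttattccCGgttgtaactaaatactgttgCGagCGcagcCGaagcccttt
HOXD13: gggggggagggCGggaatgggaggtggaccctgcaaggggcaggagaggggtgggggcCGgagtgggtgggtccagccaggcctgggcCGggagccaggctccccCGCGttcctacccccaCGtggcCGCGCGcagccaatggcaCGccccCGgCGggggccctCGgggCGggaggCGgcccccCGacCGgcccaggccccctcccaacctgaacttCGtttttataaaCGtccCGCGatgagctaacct
These windows held 23, 16 and 21 CpG dinucleotides. The GC box GGGCGG, searched on both strands, stood in the windows of HOXD11 and HOXD13, and TATAAA, also on both strands, in that of HOXD13. A GC box holds 1 CpG itself, so these motifs overlap. GGGCGG stood in 42.5% and TATAAA in 10.8% of all 34943 promoter windows of that length. These matches are a description of the letters only.

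The RefSeq table held such windows for 20 HOX genes, 26 windows in all, with a median of 19.5 CpG dinucleotides against 11 over all windows. Most were windows of HOXA and HOXD. HOXA3 gave several, with 0 to 26 CpG dinucleotides, whereas HOXB was represented by HOXB1 alone and HOXC by HOXC4 and HOXC5 alone. HOXC4 and HOXC5 share a window, since their longest annotated transcripts begin at the same base. It lies at chr12:54016638-54016887 on the plus strand.
HOXC4 and HOXC5: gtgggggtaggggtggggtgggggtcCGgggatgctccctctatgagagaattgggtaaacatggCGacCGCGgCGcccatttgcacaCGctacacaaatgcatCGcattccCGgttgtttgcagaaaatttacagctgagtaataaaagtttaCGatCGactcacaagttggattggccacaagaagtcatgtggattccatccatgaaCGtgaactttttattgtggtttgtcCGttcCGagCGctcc
The window held 14 CpG dinucleotides and neither motif. HOXC4 lay at 2.73 ± 0.33 log2 units and HOXC5 at -0.56 ± 0.46 (SD, n = 4 for each), although both are annotated from that base. HOXC4, HOXC5 and HOXC6 overlap in the annotation, so a probe in a shared exon could report more than 1 of them.

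The group 1 genes HOXB1, which patterns the hindbrain in the embryo, and HOXD1 lay below the baseline on each array. HOXB1 gave distances of -3.08, -2.40, -3.08 and -2.87 log2 units on replicates 1 to 4, a mean of -2.86 ± 0.32 (SD, n = 4). These values are as low as those of the seminal control genes, whose median distance was -3.06. HOXD1 stood at -1.17 ± 0.55 (SD, n = 4).

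Next to HOXB1, the group 2 gene HOXB2 lay at 3.72, 2.52, 1.89 and 2.21 log2 units on replicates 1 to 4. Its mean was 2.58 ± 0.80 (SD, n = 4), and no array came near the baseline. HOXA2, the other group 2 gene, lay at the baseline, with 2 arrays above it and a mean of 0.03 ± 0.58 (SD, n = 4). Among the group 3 genes HOXB3 stood at 3.03, 2.79, 2.24 and 2.16, a mean of 2.55 ± 0.42 (SD, n = 4). HOXA3 had a mean of 0.74 ± 0.58 (SD, n = 4, limma adjusted p = 0.0389) and HOXD3 one of 0.12 ± 0.65 (SD, n = 4, limma adjusted p = 0.705). HOXD3 was above the baseline on 2 of 4 arrays. Without replicate 1 or replicate 2 HOXA3 lost the call, at 0.46 and 0.78 log2 units (limma adjusted p = 0.187 and 0.0838). Each of these genes is read by its own probes, so the distances of paralogues are set side by side without a test.

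**Figure D2:**
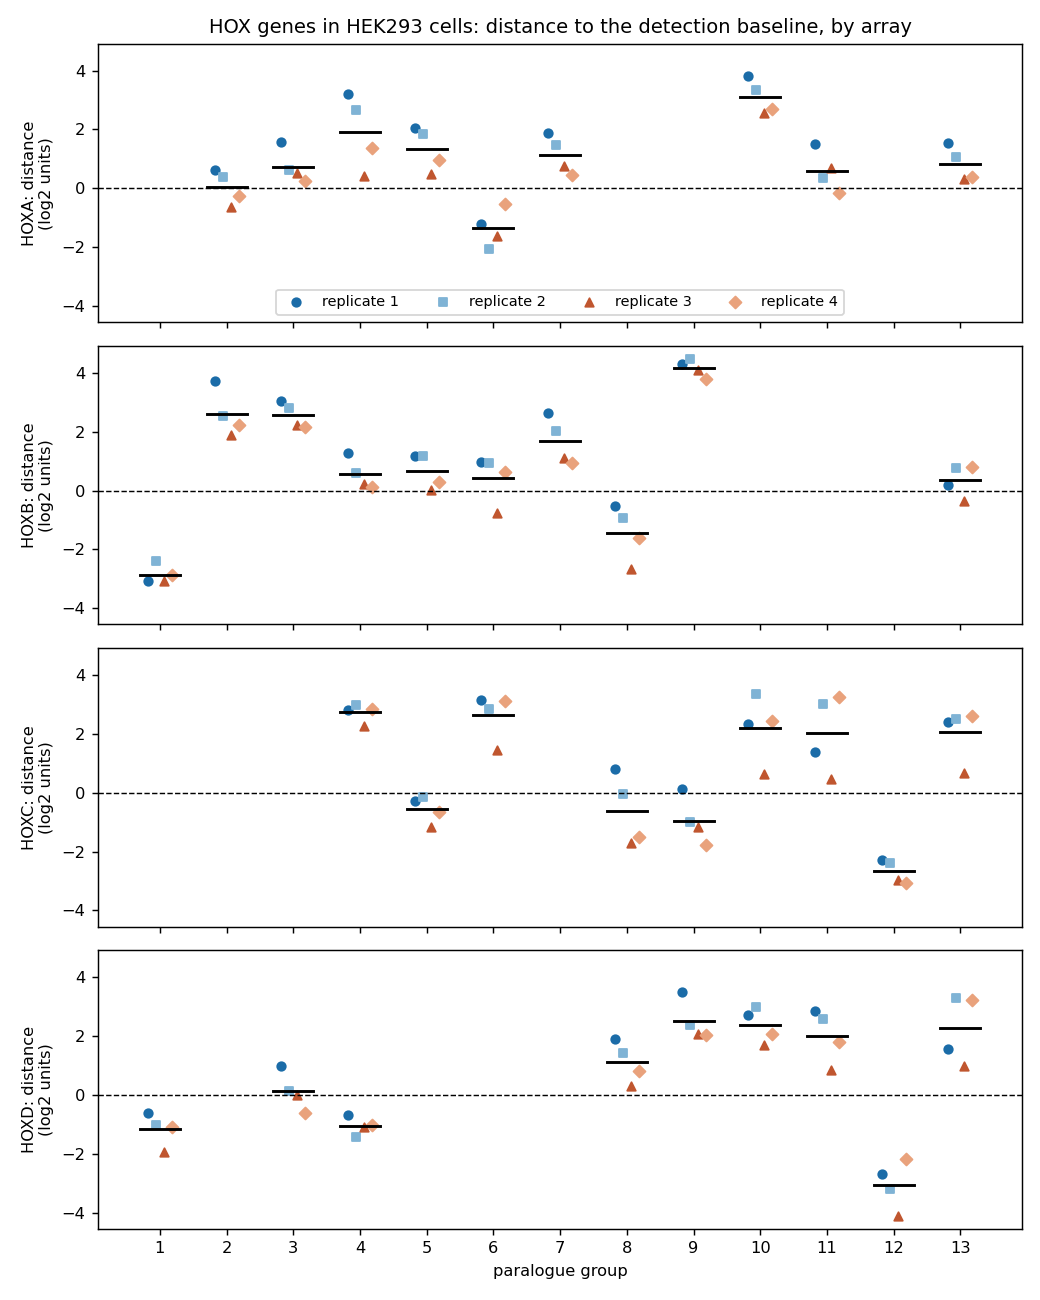
Distance to the detection baseline in log2 units (vertical axis) for each HOX gene reported by paralogue group (horizontal axis), in 1 panel per cluster. Points are the 4 arrays, black bars their mean, and the dashed line is the baseline. The arrays of HOXB9 lie between 3.79 and 4.47, while those of HOXC11 spread from 0.46 to 3.27.

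The central groups gave a mixed picture. HOXC4 was at 2.82, 2.99, 2.25 and 2.84 log2 units on replicates 1 to 4, and HOXC6 at 3.13, 2.86, 1.44 and 3.10, a mean of 2.63 ± 0.81 (SD, n = 4). HOXA4 stood at 1.92 ± 1.27, HOXA5 at 1.33 ± 0.75 and HOXA7 at 1.15 ± 0.65 (SD, n = 4 for each), and no array put any of them below the baseline. HOXB7 stood at 1.68 ± 0.80 and HOXD8 at 1.11 ± 0.71 (SD, n = 4 for each), also above it on all 4. For HOXA5, HOXA7 and HOXD8 the limma call was lost on replicates 3 and 4 alone, at 0.71, 0.61 and 0.55 log2 units (limma adjusted p = 0.0688, 0.106 and 0.15).

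Between HOXB3 and HOXB7 lay a run of low positive values. HOXB4 was at 0.55 ± 0.52, HOXB5 at 0.65 ± 0.59 and HOXB6 at 0.44 ± 0.82 (SD, n = 4 for each). None of these 3 genes passed the limma test, at an adjusted p of 0.127, 0.0677 and 0.217. For HOXB5 and HOXB6 the adjusted p fell to 0.0236 and 0.0272 without replicate 3. HOXB4 and HOXB5 were above the baseline on all 4 arrays and HOXB6 on 3.

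Central genes below the baseline were HOXA6, HOXB8, HOXC5, HOXC8 and HOXD4. HOXA6 stood at -1.35 ± 0.66, HOXB8 at -1.44 ± 0.94 and HOXD4 at -1.07 ± 0.31 (SD, n = 4 for each), below it on every array. HOXC8 stood at 0.80, -0.03, -1.70 and -1.51 log2 units on replicates 1 to 4, so its arrays lay on both sides.

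Among the posterior genes HOXB9 had the largest distance of the 38 HOX genes, which does not rank its message by abundance. HOXB9 had a distance of 4.28, 4.47, 4.10 and 3.79 log2 units on replicates 1 to 4, a mean of 4.16 ± 0.29 (SD, n = 4). Its neighbour HOXB8 lay below the baseline on every array. Of the other measured group 9 genes, HOXD9 stood at 3.51, 2.37, 2.06 and 2.04, a mean of 2.49 ± 0.69 (SD, n = 4). HOXC9 stood at -0.96 ± 0.79 (SD, n = 4), above the baseline on replicate 1 alone.

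The group 10 genes, which help to set the lumbar region and the thigh segment of the limb, were called in each cluster that has one. HOXA10 was at 3.82, 3.33, 2.56 and 2.70 log2 units on replicates 1 to 4, a mean of 3.10 ± 0.58 (SD, n = 4). HOXD10 had a mean of 2.36 ± 0.60 and HOXC10 one of 2.19 ± 1.12 (SD, n = 4 for each). Their lowest single arrays were 1.68 for HOXD10 and 0.65 for HOXC10, both on replicate 3.

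In group 11, HOXC11 stood at 2.03 ± 1.34 and HOXD11 at 2.01 ± 0.90 (SD, n = 4 for each), above the baseline on all 4 arrays. The direction of HOXD11 turned with the probe summary, as given beside its promoter, and HOXC11 lost its call on replicates 1 and 3 alone (0.92, limma adjusted p = 0.164). HOXA11 stood at 0.60 ± 0.69 (SD, n = 4, limma adjusted p = 0.0935), above it on 3. It lay at 0.30 without replicate 1 and at -0.35 with the median of the probes, where it was not detected. Group 12 was the reverse. HOXC12 was at -2.28, -2.39, -2.96 and -3.06 log2 units on replicates 1 to 4, a mean of -2.67 ± 0.40 (SD, n = 4). HOXD12 was at -2.68, -3.19, -4.12 and -2.19. The mean of HOXD12, -3.05, lay within the -2.85 to -3.58 of the 8 low control genes, and that of HOXC12 lay just above them. Both genes sat between neighbours that were called.

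Group 13, which acts at the tail end, the digits and the urogenital outlet, had all 4 members detected. HOXD13 stood at 1.56, 3.31, 0.99 and 3.22 log2 units on replicates 1 to 4 and HOXC13 at 2.39, 2.51, 0.68 and 2.61. HOXC13 had a mean of 2.05 ± 0.92 (SD, n = 4). HOXA13 lay lower, at 0.83 ± 0.58 (SD, n = 4, limma adjusted p = 0.0203), and lost the call without replicate 1 (0.59, limma adjusted p = 0.0911) or replicate 2 (0.75, limma adjusted p = 0.0951). HOXB13 lay at 0.35 ± 0.55 (SD, n = 4, limma adjusted p = 0.33), above the baseline on 3 arrays.

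The calls that held under every alternative run were those of 9 genes of the 20 called, HOXA10, HOXB2, HOXB3, HOXB9, HOXC4, HOXC6, HOXC10, HOXD9 and HOXD10. Likewise 3 of the 11 undetected genes, HOXB1, HOXC12 and HOXD12, stayed below the baseline under every alternative that kept them, including those with the lowest baselines, and the filter on dim genes removed them. The other 8 undetected genes lay above a lower baseline in at least 1 alternative.

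The arrays did not repeat all HOX genes equally well. Before the baseline is subtracted, the log2 level of a HOX gene had a median SD of 0.40 over the 4 arrays, against 0.42 for all genes. The SD ran from 0.13 to 1.34 and was above 1 for 2 HOX genes, HOXC11 and HOXD13, and for 4.45% of all genes. Levels of HOXC11 were 10.85, 12.96, 11.15 and 13.59 log2 units on replicates 1 to 4, and those of HOXD13 were 11.03, 13.24, 11.68 and 13.54. Both genes were lower on replicates 1 and 3 than on replicates 2 and 4, and so was HOXC10, at 11.82, 13.27, 11.34 and 12.76. HOXC13 had the same order with smaller steps, at 11.86, 12.45, 11.37 and 12.93. Other HOX genes split in the opposite direction, higher on replicates 1 and 3. Among these were HOXA11, at 10.97, 10.30, 11.38 and 10.18, and HOXC9, at 9.59, 8.94, 9.53 and 8.54. Each direction held further HOX genes. Some genes outside the clusters, markers of other cell types among them, were also higher on replicates 1 and 3. For NEFM and SOX11 the steps were larger. The neurofilament gene NEFM had levels of 13.57, 8.32, 13.09 and 8.08 log2 units on replicates 1 to 4, SOX11 had 13.43, 8.32, 13.39 and 7.97, and the collagen gene COL1A1 had 11.34, 9.75, 11.36 and 9.42. These genes were named after their values were seen. Of the other neuronal and fibroblast markers, INA, NEFL, STMN2 and LUM had the same order in smaller steps. NEFL had levels of 14.27, 13.88, 14.19 and 14.11. TUBB3, ELAVL4, COL1A2, COL3A1, DCN and PDGFRA did not have that order. The median distance of the 6 neuronal markers was 3.38, 0.03, 1.58 and -0.68, with STMN2 and ELAVL4 below the baseline on every array, and that of the 6 fibroblast markers -2.30, -3.40, -3.50 and -2.83. Their part in the HOX values was not tested. On replicates 1 and 3 alone, a grouping known from earlier results of these data, HOXC11 stood 0.92 and HOXD13 1.27 log2 units above the baseline (limma adjusted p = 0.164 and 0.055). Lost calls on these arrays were not particular to genes with the split. HOXA5 and HOXD8, without it, stood at 1.26 and 1.10 (limma adjusted p = 0.0572 and 0.0988). Limma called 14 HOX genes there, and the baselines of replicates 1 and 3 were 9.47 and 10.69. Genes such as HOXA10, at 13.29, 13.27, 13.25 and 13.02, showed no such spread.

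**Figure D3:**
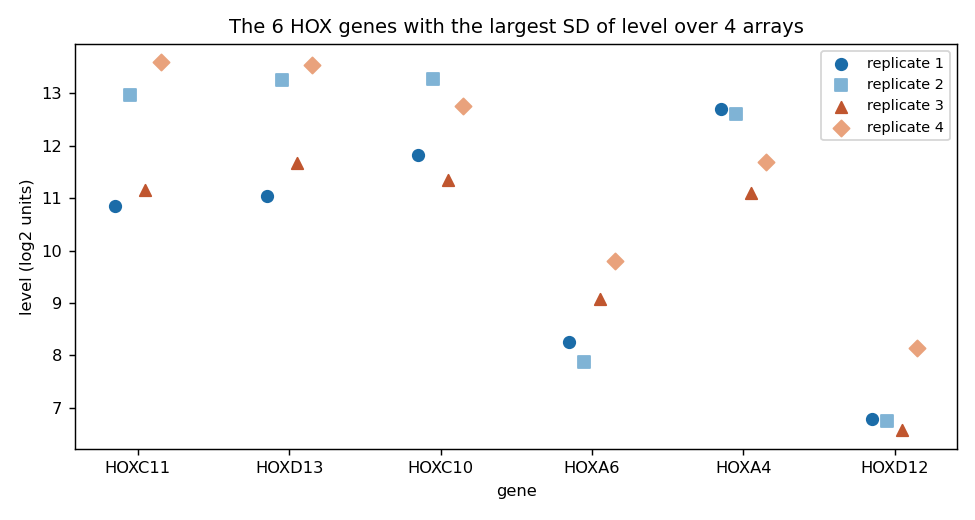
Log2 level before subtraction of the baseline (vertical axis) on each of the 4 arrays for the 6 HOX genes with the largest SD of level. HOXC11, HOXD13 and HOXC10 lie lower on replicates 1 and 3 than on replicates 2 and 4, whereas HOXA4 and HOXA6 have other orders.

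Across the 38 genes, which share probes' affinities between arrays, Pearson's r between levels on pairs of arrays ranged from 0.867 for replicates 1 and 4 to 0.953 for replicates 2 and 4. Over all genes the range was 0.949 to 0.977. The median absolute difference of a HOX gene between arrays ran from 0.32 to 0.55 log2 units. The deposited values of replicates 1 and 2 appear to share a distribution, as do those of replicates 3 and 4. The levels and their SD above were compared across both pairs. Taken separately, replicates 1 and 2 gave 28 detected HOX genes and replicates 3 and 4 gave 24.

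Probes of the same HOX gene often differed widely. Each target had 3 probes, and the difference between its highest and lowest probe had a median of 2.75 log2 units for HOX genes and 1.48 for all named targets. All probes lay above the baseline for 10 detected genes, 2 of the 3 for 12 and 1 for 5. HOXA7 and HOXA5 had the closest probes among the detected genes, with ranges of 0.46 and 0.59 log2 units. For HOXA4 the range was 6.98, from -3.69 to 3.30. HOXD11 was above the baseline through 1 probe at 3.56, while its others lay at -2.36 and -3.32. With the median of the probes in place of their linear mean, HOXD11 fell to -2.22 and HOXA3 to -2.19, and neither was detected. HOXA4, HOXB7 and HOXD13 lost the limma call with the median (0.59, 0.65 and 0.65 log2 units, limma adjusted p = 0.171, 0.0759 and 0.167).

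**Figure D4:**
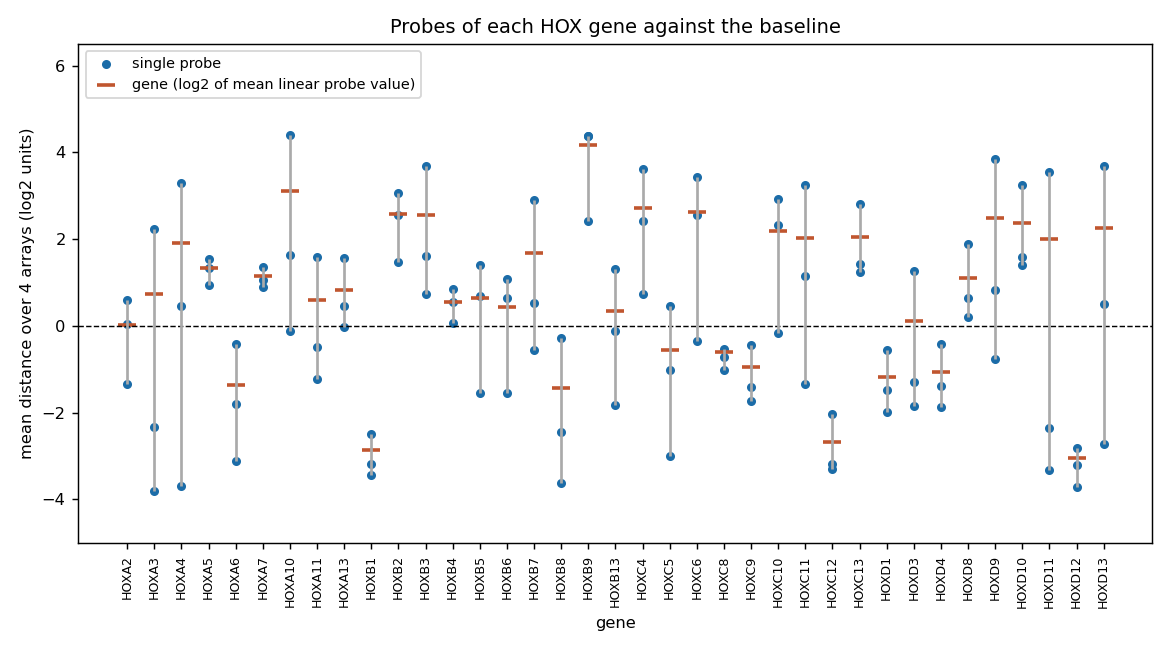
Mean distance to the baseline over 4 arrays, in log2 units, for the 3 probes of each HOX gene reported (points, joined by a grey line) and for the gene (bar). HOXA5, HOXA7 and HOXB9 have every probe above the dashed baseline, while HOXA3, HOXD3 and HOXD11 have 1 probe above it.

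HOX proteins bind DNA together with cofactors of the TALE homeodomain class, the PBX, MEIS and PKNOX proteins. Of 8 measured TALE genes 6 were detected (75.0%) and 5 called by limma, beside 52.7% and 45.9% of all named genes, which are also the shares to set beside the lists that follow. PBX3 stood at 3.48 ± 0.79, PBX2 at 2.68 ± 0.88, MEIS2 at 2.59 ± 0.66 and MEIS3 at 1.86 ± 0.81 log2 units (SD, n = 4 for each). PKNOX1 lay at 0.24 ± 0.55 (SD, n = 4) and was not called by limma, and without replicate 1 it lay at -0.02. MEIS1 and PBX4 lay below the baseline on all 4 arrays, at -1.83 ± 0.95 and -1.84 ± 1.41 (SD, n = 4 for each). PKNOX2 was not matched.

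Polycomb group proteins keep HOX genes silent by modifying histones, and Trithorax group proteins keep them active. Of 26 Polycomb group genes 22 were detected (84.6%, beside 52.7% of all genes) and 21 called, with a median distance of 2.24 log2 units. The largest distances were those of the histone-binding subunit RBBP7 at 5.38 ± 0.67, of PHC1 at 4.50 ± 0.46 and of RBBP4 at 4.48 ± 0.80 (SD, n = 4 for each). Lowest were PCGF3 at -1.69 ± 1.15, CBX7 at -0.81 ± 0.64 and RNF2, a ubiquitin ligase subunit, at -0.29 ± 0.44 (SD, n = 4 for each). PCGF3, CBX7 and RNF2 lay at 0.64, 1.52 and 2.04 without SPATA5 and SPATA13 as controls, and limma then called each. All 11 measured Trithorax group genes were detected and 10 called. The median was 3.22 log2 units. KMT2A, the histone methyltransferase also called MLL, stood at 2.72 ± 0.89, its partner MEN1 at 3.71 ± 0.52 and the demethylase KDM6A at 1.89 ± 0.96 (SD, n = 4 for each). KMT2D was detected at 0.21 ± 0.99 but not called (SD, n = 4, limma adjusted p = 0.54), and it lay at -0.10 without replicate 3 and -0.03 without replicate 4.

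Retinoic acid induces HOX genes in order along the cluster. Its receptor RARA stood at 2.56 ± 0.17 and the retinoic acid synthesis enzyme ALDH1A2 at 3.48 ± 0.64 log2 units (SD, n = 4 for each). RARB lay at 0.41 ± 0.59 and RARG at -0.02 ± 0.82 (SD, n = 4 for each), and the limma test called neither. CYP26A1, which breaks retinoic acid down, lay at -2.76 ± 0.72 (SD, n = 4). The hindbrain regulator EGR2 stood at -3.13 ± 1.10 (SD, n = 4). ZBTB16, a repressor of HOX genes, stood at 0.75 ± 0.87 and GMNN, which restrains HOX function, at 2.61 ± 0.85 (SD, n = 4 for each). ZBTB16 lost its call without replicate 1 (0.34, limma adjusted p = 0.333) and with the mean of log2 probe values (0.53, limma adjusted p = 0.152). Of the 9 upstream genes listed 6 were detected (66.7%, beside 52.7% of all genes) and 5 called, ZBTB16 included.

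The sister ParaHox genes and EVX1 gave none detected of 7. The CDX genes, which activate central and posterior HOX genes in the embryo, were among them, with CDX1 at -2.9964 ± 0.93, CDX4 at -3.30 ± 0.46 and CDX2 at -0.99 ± 1.54 log2 units (SD, n = 4 for each). CDX2 was above the baseline on 1 array. GSX1 stood at -3.41 ± 0.23, GSX2 at -3.62 ± 0.31 and PDX1 at -0.79 ± 0.67 (SD, n = 4 for each). EVX1, the homeobox gene at the group 13 end of HOXA, stood at -3.44, -3.94, -3.85 and -3.92 on replicates 1 to 4, below the baseline on every array. EVX2, at the same end of HOXD, was not matched. PDX1 and CDX2 lay above the lower baseline without SPATA5 and SPATA13 as controls, at 1.54 and 1.33, and limma called both.

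Outside the clusters most genes nearby were detected. The 3 nearest measured protein-coding genes on each side of each cluster made 24, of which 20 were detected (83.3%, beside 52.7% of all genes) and 19 called, with a median distance of 2.55 log2 units. Several are themselves duplicates shared between clusters. The adaptor gene SKAP2 beside HOXA stood at 3.02 ± 0.71, whereas SKAP1 beside HOXB stood at -0.77 ± 0.81 (SD, n = 4 for each). CBX3, CBX1 and CBX5, which encode heterochromatin proteins, stood at 3.17 ± 1.01, 3.28 ± 0.82 and 3.00 ± 0.41 beside HOXA, HOXB and HOXC (SD, n = 4 for each). At the group 13 end of HOXC lay CALCOCO1 at 3.94 ± 0.74, and at that of HOXB lay TTLL6 at -3.10 ± 0.52, followed by CALCOCO2 at 0.99 ± 0.48 (SD, n = 4 for each). HOXD was flanked by LNPK at 1.90 ± 0.64 and MTX2 at 2.95 ± 0.68 (SD, n = 4 for each).

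**Figure D5:**
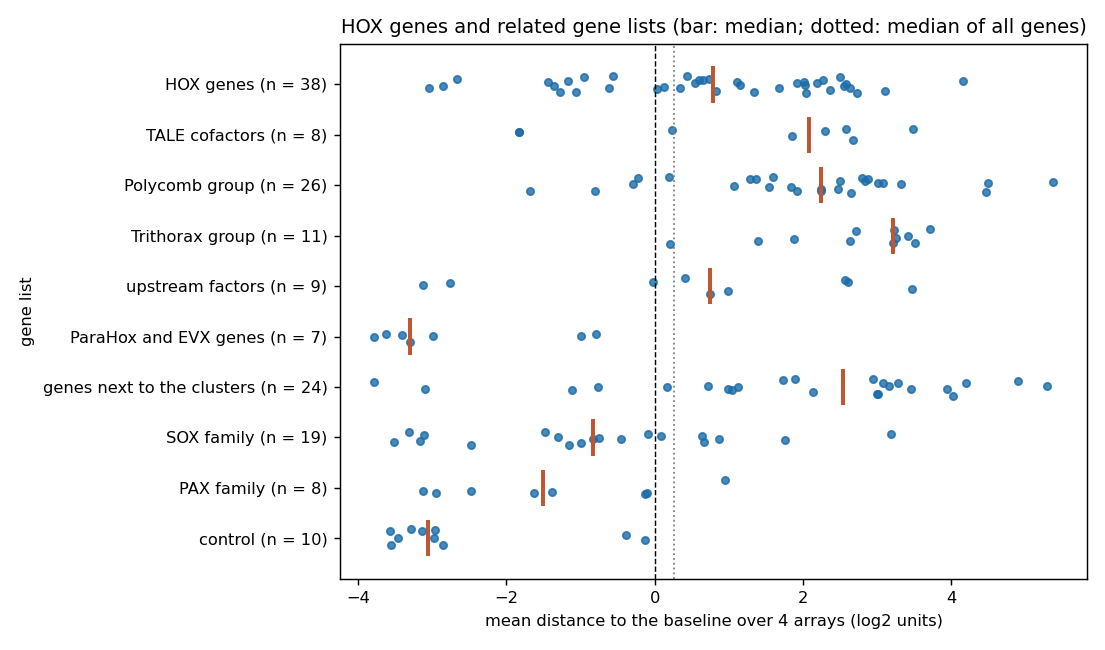
Mean distance to the baseline over 4 arrays, in log2 units (horizontal axis), for HOX genes and related gene lists (vertical axis), with 1 point per gene, an orange bar at each median, the baseline dashed and the median of all genes dotted. The HOX median of 0.79 lies between the Trithorax median of 3.22 and the ParaHox and EVX median of -3.30.

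Other families of developmental transcription factors had smaller shares detected. Of 19 SOX genes 6 were detected (31.6%) with a median distance of -0.83 log2 units, and of 8 PAX genes 1 (12.5%) with a median of -1.51. Among embryonic kidney markers 6 of 9 were detected and 4 called by limma, beside 52.7% and 45.9% of all genes. SIX2 at 0.04 ± 0.45 and EYA1 at 0.11 ± 0.67 (SD, n = 4 for each) were detected but not called. SALL1 stood at 1.90 ± 0.30, while PAX2 and PAX8, defining factors of the renal lineage, lay at -1.63 ± 0.74 and -3.12 ± 0.90 (SD, n = 4 for each) and below the baseline on all 4 arrays. PAX2 lay at 0.70 without SPATA5 and SPATA13 as controls (limma adjusted p = 0.0134). Of 8 mature kidney markers 1 was detected, of 6 neuronal markers 4 (NEFM through 2 of its 4 arrays), of 6 fibroblast markers 1 and of 5 blood markers none. The markers of the kidney label were thus detected in part, and the part of other cell types in the HOX values was not tested.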

How the data were processed

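RNA of 4 HEK293 cultures was hybridised in 1 colour to NimbleGen arrays with several probes per transcript. For each probe the authors deposited a log2 value from every array, read with the maker's software. RMA is named in the submitters' processing notes without a role, and background correction and normalization are not given in the sources used here. The table held 71998 probes. Arrays give no read depth, so the number of arrays limits the precision.

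Accessions were matched without versions to RefSeq genes of GRCh38.p14, used for names and gene order, which named 19125 of 24000 targets. Probes of a target were averaged on the linear scale before log2, and targets of a gene on the log2 scale. The baseline used 10 of the 11 seminal genes of the methods (PYY2 was not matched). Distances were tested one-sided against 0 with limma 3.58.1 in R 4.3.3, intercept only, with Benjamini-Hochberg adjustment at 0.05 over 17217 genes, after a check on simulated data. The prior degrees of freedom were infinite, so every gene had a standard error of 0.351. A call therefore followed the mean distance and not the gene's own spread, which for HOXC11 was an SD of 1.34. Baseline shifts move all genes of an array together, so the tests were not independent. With 4 arrays the smallest one-sided p of an exact sign-flip test is 0.0625. The members, lists and alternatives were chosen with earlier results of these data known. All HOX genes, control genes, members of lists of 12 or fewer, the 3 highest and 3 lowest of longer lists and the genes beside the clusters could be named, and a few of these are not reported here. None of 14 listed HOX antisense and long noncoding RNAs was matched. Kidney, neuronal, fibroblast and blood markers were counted as lists. Alternatives concerned the probe summary, the targets of a gene, the baseline, the normalization, the arrays used, the variance model and a filter on dim genes.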

Additional observations from a re-analysis of the deposited data

Results flagged for a closer look

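The gap between the highest or lowest array and its nearest neighbour, divided by the range, was compared with Dixon's critical value for 4 samples over 76 sets of values (levels and distances of 38 HOX genes), and 9 exceeded it, where chance alone marks about 1 in 20. On the level scale these were HOXA2 at 0.862 (replicate 2 high), HOXA7 at 0.862, HOXA10 at 0.874 and HOXA13 at 0.947 (replicate 4 low in each), HOXB1 at 0.869 (replicate 1 low), HOXB2 at 0.835 (replicate 1 high) and HOXD12 at 0.863 (replicate 4 high). On the distance scale they were HOXC6 at 0.837 and HOXC13 at 0.884, both with replicate 3 low. For HOXA2, HOXA10 and HOXA13 the SD of the level was 0.13 to 0.14 log2 units, so the array that stood apart did so by a small step.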

How the results depend on the processing

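The height of the baseline moved the HOX counts most. With 3 SD, 16 HOX genes were detected, 10 were called by limma and 8 were above it throughout, with 3 HOXA and 4 HOXB genes detected. Without SPATA5 and SPATA13 as controls, limma called 35 and 34 were above it throughout, as with olfactory receptor genes as controls, and with the median and scaled MAD of the controls limma called 31. HOXC gave 8 detected genes under each of these lower baselines and with 1 SD. With the median of the probes 13 genes were above the baseline throughout. Leaving out 1 replicate gave 25 to 27 detected HOX genes, 18 to 22 called by limma and 22 to 24 above the baseline on all arrays, with 7 to 8, 8, 5 and 5 to 6 detected in HOXA to HOXD. The share of HOX genes detected was above that of all genes under every setting of the baseline, probes or arrays that was run. The margin was small with 3 SD, at 42.1% of HOX genes and 39.1% of all genes. These settings reuse the same arrays and genes. Of 121 alternative counts 106 stayed within 1.5 times the reported count.

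Among single HOX genes 591 of 719 alternative values kept their direction and side of the threshold, 37 lost and 62 gained the limma call, and 59 changed sign. Called genes that changed sign were HOXA3 (-0.96 with the mean of log2 probe values, -2.19 with the median of probes, -0.58 with 3 SD), HOXD11 (-0.37 and -2.22 with the same probe summaries), and, with 3 SD, HOXA7 at -0.17, HOXA13 at -0.49 and HOXD8 at -0.21. Among the related genes, 3 SD gave ATF7 -0.27, ATP5MC3 -0.59, CALCOCO2 -0.33, SMUG1 -0.19 and ZBTB16 -0.56. ATP5MC3 was also at -0.0147 with the mean of log2 probe values and at -0.0476 on replicates 3 and 4 alone. Undetected related genes rose above the baseline once SPATA5 and SPATA13 were left out as controls. RARG then lay at 2.31, RNF2 at 2.04, SKAP1 at 1.56, PDX1 at 1.54 and CBX7 at 1.52. CDX2 lay at 1.33, ATP5MC2 at 1.2, PAX2 at 0.70 and PCGF3 at 0.64, and limma called each of these. MEIS1 and PBX4 lay at 0.49 and were not called. A higher baseline lowers every distance by construction, and the cause was not tested for the probe summaries. No paired analysis was possible because the design holds 1 group. Raw intensities were not analysed here, so signal over local background and saturation limit every value to an unknown extent.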
